A study of Mus musculus with 6 samples.

Results

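Transcript levels of 8 transcription factors of endocrine cell differentiation were examined in sorted pituitary cells: Neurod1, Neurod4, Insm1, Six3, Six6, Zbtb20, Etv1 and Foxo1. The genes were taken by symbol from a deposited table of 22869 named genes, in which all 8 had a row, and where a symbol had several rows the row with the highest mean was used. The libraries came from untreated female mice of a CD1 x C57BL/6 hybrid background, aged 6 to 8 weeks, and their pituitary cells were sorted by FACS, fluorescence-activated cell sorting. The groups were somatotropes (growth hormone cells) and lactotropes (prolactin cells), with 3 libraries titled biological replicates 1 to 3 in each. No source used here names the sort marker or says whether animals were pooled, and the p-values therefore cover only variation among these libraries.

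Growth hormone and prolactin cells arise from a common lineage, in which the homeodomain factor PIT-1 (Pou1f1) opens the hormone programme and further factors shape the cell types. NEUROD1 and NEUROD4 are basic helix-loop-helix (bHLH) activators that bind E-box sequences with E-protein partners, and in the pituitary NEUROD1 is known from corticotropes and NEUROD4 from maturing somatotropes. INSM1 is a zinc finger repressor of neuroendocrine differentiation, SIX3 and SIX6 are homeodomain repressors of forebrain, eye and pituitary development, and ZBTB20 is a zinc finger repressor known to be needed for lactotropes. ETV1 is an Ets factor that responds to fibroblast growth factor (FGF) and ERK signalling, and FOXO1 is a forkhead factor that insulin and AKT signalling keep out of the nucleus and that is known to act in somatotrope development.

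Values are FPKM, that is fragments counted per length of transcript and per library depth, so levels can be compared between genes. Gh, which encodes growth hormone, lay between 19384 and 84909 FPKM in somatotropes and between 3954 and 7623 FPKM in lactotropes, and Prl, which encodes prolactin, between 8709 and 24481 FPKM in somatotropes and between 25171 and 195325 FPKM in lactotropes. Both hormones marked the labelled cell type without overlap, narrowly so for Prl, and transcripts of each were measured in both. Replicate 1 stood apart: the libraries of its pair had a Pearson correlation of 0.93 across genes, which are not independent replicates, against 0.66 and 0.685 between somatotrope 1 and the other somatotropes. Its depth, read from low values of single-exon genes that fell on whole fragments, was 29250000 fragments in somatotrope 1 and 17640000 in lactotrope 1, and could not be recovered for the other 4 libraries. Lactotrope 3 listed 14.9% of tested genes at 0, against at most 2.95% elsewhere, so a 0 there is given as listed and not as absence. Summed markers of leukocytes (70.1 to 3312 FPKM) and of red blood cells (5.33 to 4259 FPKM) were lowest in the libraries of replicate 1. The leukocyte sum also differed between the cell types. It was 70.1, 1114 and 695 FPKM in somatotropes 1 to 3 and 293, 3312 and 1607 FPKM in lactotropes 1 to 3. The lactotrope library was thus the higher in each same-numbered pair. The part of leukocytes and red blood cells in the results was not tested. In sorted bulk RNA, fewer cells of a type and less RNA per cell cannot be told apart.

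No member passed the test between the cell types. The 7 members with a mean of at least 1 FPKM were tested on log2(FPKM + 1) with limma across 11642 genes, and 0 passed at an adjusted p of 0.05, as did 0 of all genes (0% called). At an unadjusted p under 0.05 there were 0 of these 7 members and 0.962% of all genes. With the replicate number as a block in limma, 0 genes were again called, and 1 of the 7 members, Neurod4, had an unadjusted p under 0.05 against 10.9% of all genes. None of the 8 members had groups that did not overlap, where 3.66% of tested genes did (2.51% with somatotropes and 1.15% with lactotropes higher). Of the 7 tested members, Neurod4 and Insm1 had the lactotrope library on top in all 3 same-numbered pairs and Foxo1 and Zbtb20 the somatotrope library, and 34.1% of all tested genes lay on the same side in all 3 pairs.

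The members differed in level and in how much they varied between libraries. In somatotropes the order of the means was Zbtb20 at 34.1 ± 20.6 FPKM (SD, n = 3), Neurod4 at 18.9 ± 29.5, Six6 at 9.75 ± 2.51, Foxo1 at 6.42 ± 5.24, Six3 at 5.63 ± 3.33, Etv1 at 2.90 ± 1.02, Insm1 at 2.68 ± 2.27 and Neurod1 at 0.384 ± 0.174 FPKM. In lactotropes the first 3 held the same places and Neurod1 was again last, while Insm1 was in place 4. Most neighbours in these orders were not separated beyond their spread: Zbtb20 lay above Neurod4 in 4 of 6 libraries, and Neurod4 above Six6 in 2. Some orders held in every library: Neurod1 was below each of the other members in all 6, and Six6 lay above Six3, Insm1 and Etv1 in all 6.

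**Figure D1:**
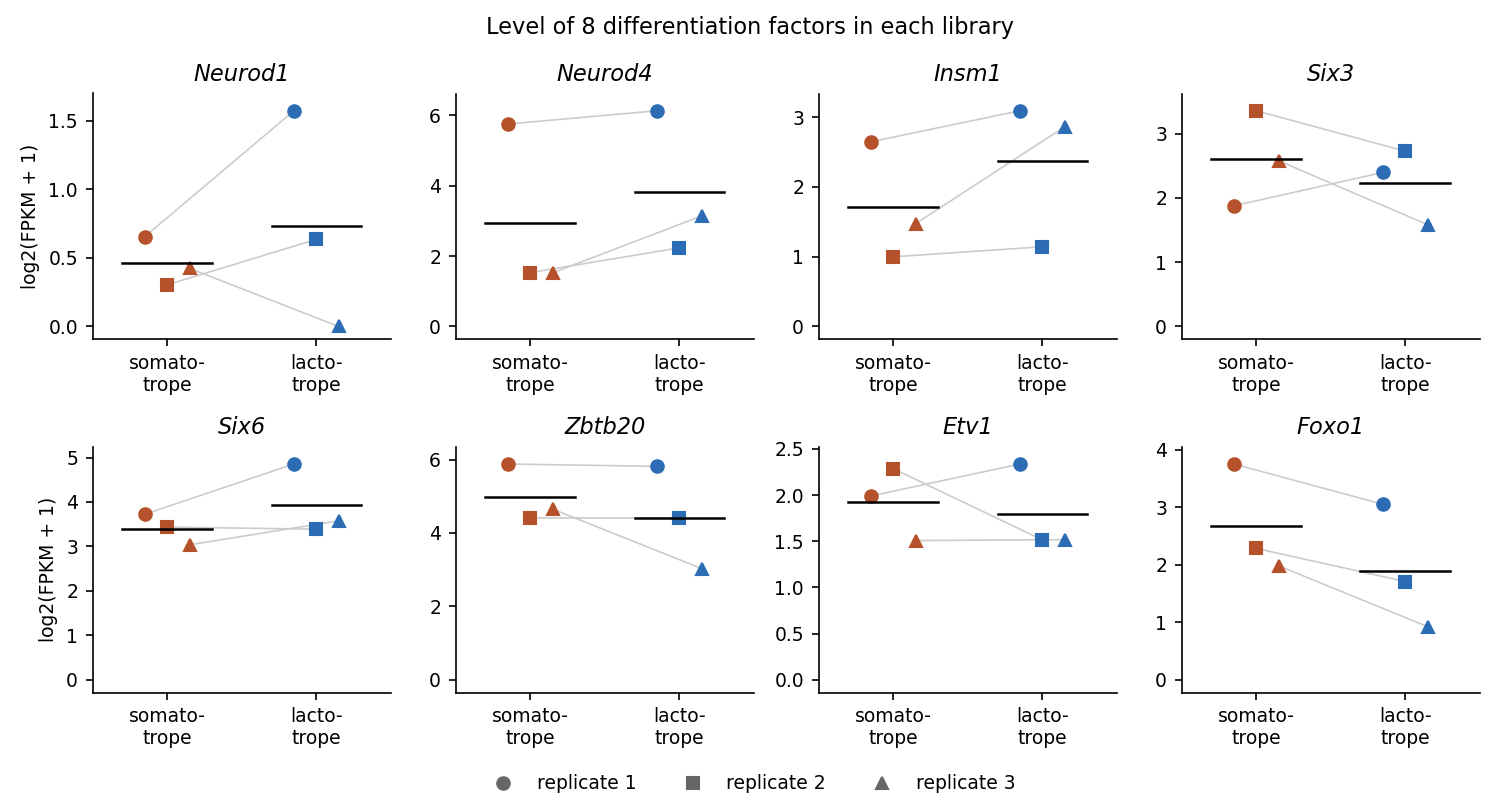
Level of each member as log2(FPKM + 1), with a separate vertical scale for each gene; points are libraries, with 1 symbol per replicate number, grey lines join same-numbered libraries and black lines are group means. Replicate 1 (circles) is the highest pair for Neurod4, at 52.9 and 69.0 FPKM, while the circles of Six3 are not at the top, and the cell types overlap for all 8 genes.

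Among the bHLH factors, Neurod4 was abundant in replicate 1 and low elsewhere. It had 52.9, 1.89 and 1.87 FPKM in somatotropes 1 to 3 and 69.0, 3.70 and 7.81 FPKM in lactotropes 1 to 3. The lactotrope library was the higher in each pair, by 1.30, 1.96 and 4.17 times, but the step between replicates was larger than the step between cell types, and the groups overlapped. The difference, somatotrope minus lactotrope, was -0.90 on the log2(FPKM + 1) scale (SE 1.16, 95% interval -3.40 to 1.60, limma adjusted p = 1.00). In the block fit its unadjusted p was 0.0329 and its adjusted p 0.422, and without lactotrope 1 the difference turned to 0.25. On this scale 92.4% of the sum of squares of Neurod4 lay between replicate numbers and 5.66% between cell types, against medians of 77.4% and 6.44% over tested genes.

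The replicate step of Neurod4 was wide even for this data set. Its mean was 61.0 FPKM in the libraries of replicate 1 and 3.82 FPKM in the other 4. A larger ratio of these means was found in 2.04% of tested genes, and the median ratio was 2.15. Within each library, Neurod4 stood above 96.7%, 63.2% and 65.2% of genes in somatotropes 1 to 3 and above 97.8%, 73.5% and 88.3% in lactotropes 1 to 3. No scaling of a library can alter this ranking, but it counts genes listed at 0 and so depends on how many there are. Lactotrope 3 had 11318 genes above 0 and somatotrope 1 had 18592, so ranks are not directly comparable between libraries. The tested gene whose mean-centred profile lay nearest, by root mean square distance over the 6 libraries, was Plagl1, a zinc finger transcription factor gene, at 0.30 log2 units, followed by the small nucleolar RNA gene Snord49b at 0.34. Pou1f1, looked up after its values were seen, was the 6th nearest at 0.42, with 245, 21.0 and 19.9 FPKM in somatotropes and 258, 34.6 and 66.7 FPKM in lactotropes. Neurod4 and Pou1f1 were both highest in replicate 1 and both higher in lactotropes than in somatotropes of every pair. Of all tested genes, 70.4% had their highest library in replicate 1 and 11.2% were higher in lactotropes in every pair.

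In mm9, Neurod4 lies on chromosome 10 from 129705208 to 129717296 and Neurod1 on chromosome 2 from 79292798 to 79296793, both on the minus strand. Neurod1 was close to the lower end of measurement. It had 0.576, 0.235 and 0.342 FPKM in somatotropes and 1.98, 0.554 and a listed 0 FPKM in lactotropes. The lactotrope value was the higher in pairs 1 and 2, and in pair 3 the gene was listed at 0 in the lactotrope library. With a mean of 0.614 FPKM it was below the filter and was not in the main fit. With the filter lifted, limma gave it an unadjusted p of 0.531 (SE 0.417). A two-sided exact permutation test of the gene alone gave p = 0.8 for a log2 difference of -0.28 (n = 3 and 3), where 0.1 is the smallest p that the design allows. That difference turned to 0.14 without lactotrope 1. Markers of corticotropes and melanotropes, 6 of 6 with a row, summed to 96.2, 1214 and 5778 FPKM in somatotropes and 879, 554 and 426 FPKM in lactotropes, with Pomc the hormone precursor gene of those cells. That sum, nearly all Pomc, was highest in somatotrope 3. The corticotrope factor gene Tbx19 (15.4 FPKM) and the receptor genes Crhr1 (6.33 FPKM) and Avpr1b were instead highest in lactotrope 1, the library where Neurod1 was highest too. Of all tested genes, 70.4% had their highest library in replicate 1. Tbx19 and Crhr1 were next highest in somatotrope 3, at 10.3 and 4.69 FPKM, where Neurod1 was at 0.342 FPKM. Pcsk2 and Pax7 were highest in somatotrope 3, with Pax7 at no more than 0.127 FPKM in any library. The part of these cells in the Neurod1 values was not tested.

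Within a library Neurod4 exceeded Neurod1 throughout. The ratio of their FPKM values was 91.9, 8.05 and 5.47 in somatotropes and 34.9 and 6.69 in lactotropes 1 and 2, and Neurod1 was listed at 0 in lactotrope 3. As the log2 ratio of FPKM + 1, it averaged 2.47 ± 2.27 in somatotropes and 3.10 ± 1.48 in lactotropes (SD, n = 3; two-sided exact permutation p = 0.8). Promoter windows of this paralogous pair are shown to compare them for the E-box that bHLH factors bind. The windows are the 250 bases before the transcription start, from RefSeq on GRCm38.p6, at chr2:79456637-79456886 on the minus strand and chr10:130280255-130280504 on the minus strand. Neurod4 has more than 1 RefSeq start, and the first listed is shown. E-boxes, searched as CANNTG on both strands, are in capitals.
Neurod1: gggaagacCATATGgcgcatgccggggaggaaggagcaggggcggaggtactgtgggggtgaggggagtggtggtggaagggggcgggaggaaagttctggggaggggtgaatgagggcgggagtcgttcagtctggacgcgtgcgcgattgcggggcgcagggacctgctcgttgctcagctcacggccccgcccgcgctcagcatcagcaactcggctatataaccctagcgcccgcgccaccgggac
Neurod4: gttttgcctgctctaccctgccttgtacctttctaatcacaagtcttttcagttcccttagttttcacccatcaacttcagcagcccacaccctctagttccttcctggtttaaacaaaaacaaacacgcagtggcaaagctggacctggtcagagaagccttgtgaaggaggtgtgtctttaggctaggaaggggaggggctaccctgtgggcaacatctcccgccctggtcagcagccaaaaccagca
Neurod1 held 1 E-box, 242 bases before its start, and Neurod4 none in this window, while 66.2% of all 32851 such windows held at least 1. This count says only which letters are in the window, and the NeuroD-type E-box CAGATG, which is one form of CANNTG, was in neither.

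Insm1, the zinc finger repressor gene, was higher in lactotropes in all 3 pairs. Its levels were 5.26, 0.998 and 1.77 FPKM in somatotropes and 7.53, 1.21 and 6.27 FPKM in lactotropes, 1.43, 1.21 and 3.53 times as high in the lactotrope library of each pair. Lactotropes 1 and 3 were above every somatotrope library, whereas lactotrope 2 lay among the somatotropes. The log2 difference was -0.66 (SE 0.79, limma adjusted p = 1.00; block adjusted p = 0.566), and it kept its sign in each of the 20 alternatives run, between -1.27 and -0.03. Some of these alternatives, such as the filters and the block, could not change the difference. With 1 library left out the difference was nearest to 0 without lactotrope 1, at -0.30, and farthest without lactotrope 2, at -1.27. Insm1, on chromosome 2 from 146047733 to 146050754 (mm9, plus strand), has a single exon, so its depth can be counted: its value stood for 465 fragments in somatotrope 1 and 401 in lactotrope 1. Gtf2h4, a subunit gene of a general transcription and DNA repair factor, had the nearest profile at 0.09 log2 units, and 2900064A13Rik came next at 0.15.

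**Figure D2:**
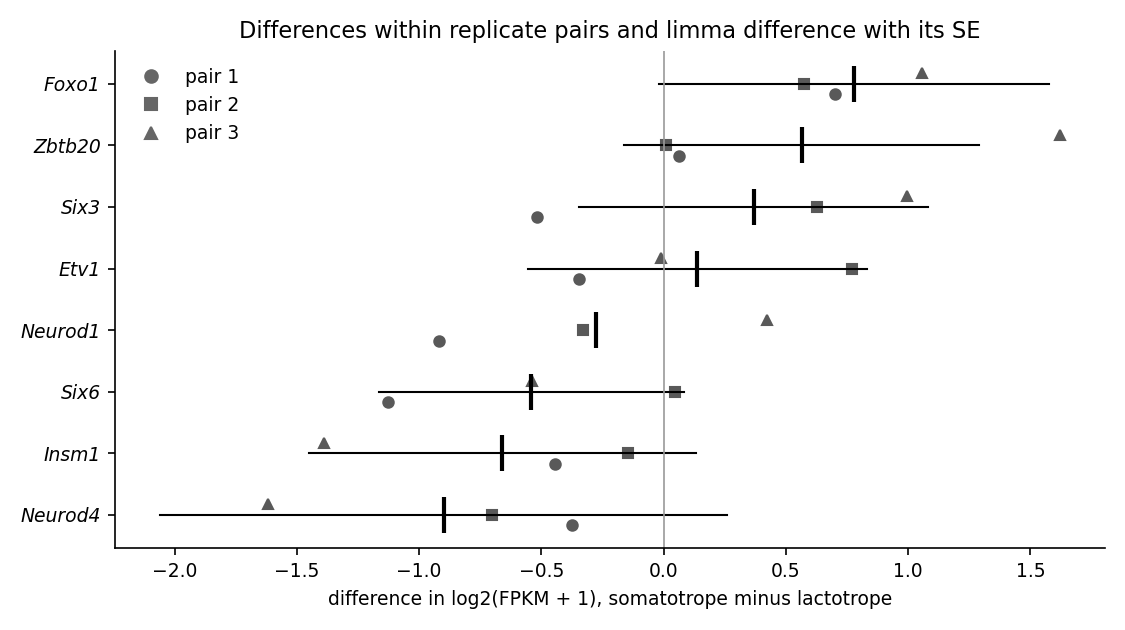
Difference in log2(FPKM + 1), somatotrope minus lactotrope, for each member. Symbols are the 3 same-numbered pairs, the upright bar is the mean difference and the horizontal line its limma SE (Neurod1 was not in the main fit). Foxo1 lies right of 0 and Neurod4 and Insm1 left of 0 in all 3 pairs, Zbtb20 is near 0 in pairs 1 and 2, and the SE lines of all 7 tested members cross 0.

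Six3 and Six6, the homeodomain repressor genes, were above 0 in all libraries and had unlike profiles. Six3 had 2.68, 9.24 and 4.98 FPKM in somatotropes and 4.27, 5.63 and 2.00 FPKM in lactotropes, and Six6 had 12.2, 9.81 and 7.20 FPKM in somatotropes and 27.9, 9.47 and 10.9 FPKM in lactotropes. Six3 was highest in somatotrope 2 and lowest in lactotrope 3, and was the only member whose highest library was not one of replicate 1, where 70.4% of tested genes had theirs. The nearest profiles were those of Ppt1 (0.10 log2 units) and Capn1 (0.13) for Six3, and of Pwp2 (0.11) and Lyrm1 (0.12) for Six6. Six6 was highest in lactotrope 1 and lay between 7.20 and 12.2 FPKM in the other 5 libraries. In mm9, Six3 lies on chromosome 17 from 86020174 to 86025531 and Six6 on chromosome 12 from 74040932 to 74045886, both on the plus strand. Log2 differences were 0.37 (SE 0.71) for Six3 and -0.54 (SE 0.62) for Six6, each with a limma adjusted p of 1.00, and that of Six3 was -0.0076 without somatotrope 2. That of Six6 was -0.083 without lactotrope 1.

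Six6 exceeded Six3 in every library, by 4.57, 1.06 and 1.45 times in somatotropes 1 to 3 and by 6.55, 1.68 and 5.47 times in lactotropes 1 to 3. The excess was larger in the lactotrope library of each pair, a ratio that multiplying a library by a constant leaves as it is. As the log2 ratio of FPKM + 1, Six3 to Six6 averaged -0.79 ± 0.93 in somatotropes and -1.70 ± 0.93 in lactotropes (SD, n = 3), a difference of 0.91 with a two-sided exact permutation p of 0.2, and the cell types overlapped. Leaving out 1 library moved that difference between 0.53 (without lactotrope 1) and 1.44 (without somatotrope 1). Markers of stem and folliculostellate cells, which make no hormone, were read beside Six3. The 8 markers summed to 294, 2566 and 1241 FPKM in somatotropes and 160, 779 and 165 FPKM in lactotropes, and the 3 libraries with the highest sums were also the 3 highest for Six3. Among the other 3 the order differed, since lactotrope 1 had the lowest sum and Six3 at 4.27 FPKM, above somatotrope 1 and lactotrope 3. Most of the sum in somatotrope 2 came from Mia1 (1432 FPKM) and Aldoc (926 FPKM). Sox2, a defining stem cell marker, was between 2.12 and 7.68 FPKM in 5 libraries and at 0.0041 FPKM in lactotrope 3. Unlike Six3, Sox2 was higher in somatotrope 1 (4.43 FPKM) than in somatotrope 3 (3.56 FPKM). The other markers had the same 3 libraries on top as the sum, with S100b and Cyp2f2 highest in somatotrope 3. S100b was at 0 in lactotropes 1 and 3. Id4, Six2, Spry1, Fgfr2, Isl1 and Akt1, described further on, were likewise highest in somatotrope 2. Kdm1a, Tle1, Zbtb17, Zbtb38, Irs2, Klf15 and Pdk4, also named for a small p in their lists, were not. The genes highest in somatotrope 2 were named for a small p in these same libraries, and their differences favoured somatotropes. That choice and direction favour a somatotrope library on top. The share of all tested genes that were highest in somatotrope 2 was not counted. The part of stem and folliculostellate cells in the Six3 values was not tested.

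Promoter windows of Six3 and Six6 are shown because the paralogues had unlike profiles, with the CCAAT box, searched as CCAAT on both strands, in capitals. They are the 250 bases before the RefSeq start on GRCm38.p6, at chr17:85620584-85620833 on the plus strand and chr12:72939632-72939881 on the plus strand.
Six3: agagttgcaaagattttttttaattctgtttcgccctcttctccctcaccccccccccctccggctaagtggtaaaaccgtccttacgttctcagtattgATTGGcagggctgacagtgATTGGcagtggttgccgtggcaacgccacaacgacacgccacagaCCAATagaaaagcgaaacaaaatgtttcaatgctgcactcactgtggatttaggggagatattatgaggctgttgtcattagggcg
Six6: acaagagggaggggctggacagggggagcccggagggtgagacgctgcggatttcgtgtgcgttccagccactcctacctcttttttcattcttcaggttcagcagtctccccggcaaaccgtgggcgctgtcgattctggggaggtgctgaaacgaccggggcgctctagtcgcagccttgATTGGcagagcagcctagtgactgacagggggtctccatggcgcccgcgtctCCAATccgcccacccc
Six3 held 3 CCAAT boxes, 150, 131 and 86 bases before its start, and Six6 held 2, at 68 and 16 bases. Foxo1 held 3, and the Neurod1, Neurod4, Zbtb20 and Etv1 windows none, while 33.8% of all windows held at least 1. The Pit-1 element TATNCAT and the FoxO element GTAAACA, which are in 7.92% and 3.17% of windows, matched none of the 7 members with a window (for Etv1, too, the first listed start was used).

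Zbtb20 had the highest mean of the 8 genes in both cell types, but narrowly so in lactotropes, at 27.5 FPKM against 26.8 FPKM for Neurod4. Neurod4 lay above Zbtb20 in lactotropes 1 and 3, and Six6 did so in lactotrope 3. The levels of Zbtb20 were 57.8, 20.3 and 24.1 FPKM in somatotropes and 55.2, 20.1 and 7.17 FPKM in lactotropes. In pairs 1 and 2 the cell types were nearly level, with the somatotrope library 1.05 and 1.01 times the lactotrope library, and in pair 3 it was 3.36 times. The log2 difference was 0.56 (SE 0.73, limma adjusted p = 1.00) and rested on lactotrope 3, without which it was -0.13. A further Zbtb20 transcript row with the same span had 54.2, 18.9 and 22.5 FPKM in somatotropes and 51.5, 18.8 and 6.66 FPKM in lactotropes, the same order of libraries. The gene occupies bases 43247397 to 43619236 of chromosome 16 (mm9, plus strand).

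Foxo1, the forkhead factor gene, was higher in somatotropes in each pair. It had 12.4, 3.87 and 2.95 FPKM in somatotropes and 7.28, 2.26 and 0.896 FPKM in lactotropes, ratios of 1.71, 1.71 and 3.29. Lactotrope 1 exceeded somatotropes 2 and 3, so the groups overlapped although each pair had the same order. The log2 difference was 0.78 (SE 0.80, limma adjusted p = 1.00; block adjusted p = 0.476). It kept its sign in all 20 alternatives, between 0.24 (without somatotrope 1) and 1.36 (without lactotrope 1), and was 0.29 without lactotrope 3. Some of these alternatives, such as the filters and the block, could not change the difference. The gene occupies bases 52072259 to 52154031 of chromosome 3 (mm9, plus strand). Of its sum of squares 80.7% lay between replicate numbers, 18.1% between cell types and 1.25% in the remainder.

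Zbtb20 and Foxo1 were the nearest pair among the 7 tested members, at 0.30 log2 units, and Neurod4 and Six3 the farthest apart at 2.25. The profile nearest to Foxo1 was that of Mut, the methylmalonyl-CoA mutase gene, at 0.08 log2 units, followed by Nek7 at 0.10. Fbxo45 and Dstyk were nearest to Zbtb20 at 0.09 each. Such neighbours were many: 2000 genes lay within a distance of Foxo1 that was less than 50% of its own spread over the libraries, and 504 did so for Neurod4.

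**Figure D3:**
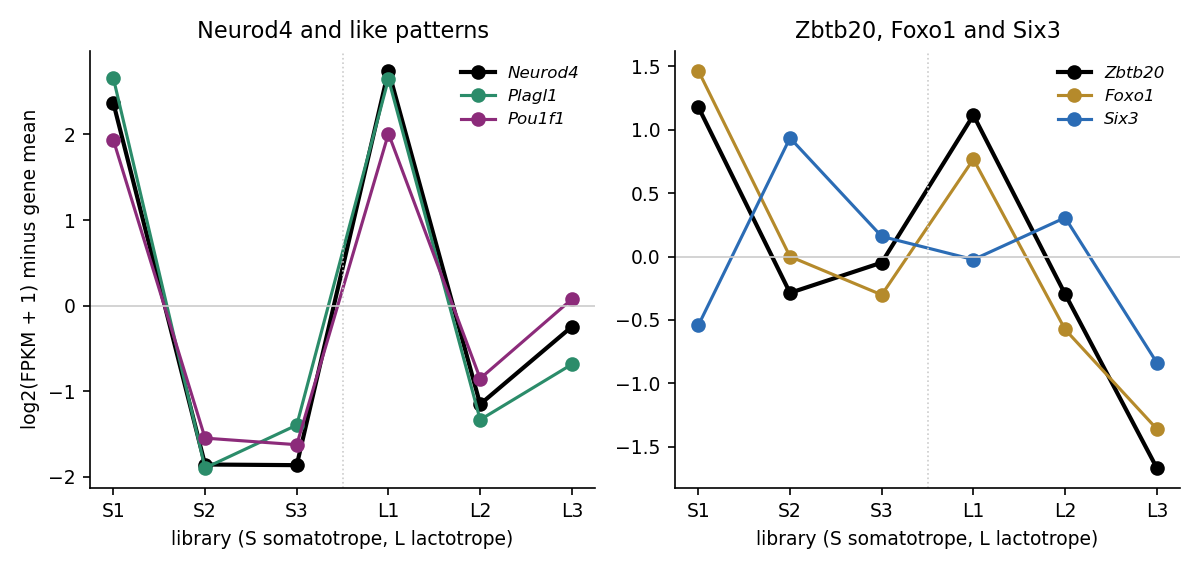
Level of each gene in each library as log2(FPKM + 1) minus the gene's mean over the 6 libraries, for Neurod4 with Plagl1 and Pou1f1 (left) and for Zbtb20, Foxo1 and Six3 (right). Neurod4, Plagl1 and Pou1f1 peak together in S1 and L1, Zbtb20 and Foxo1 fall together toward L3, and Six3 peaks in S2.

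Etv1, the Ets factor gene, varied least of the tested members. It had 2.97, 3.88 and 1.84 FPKM in somatotropes and 4.05, 1.86 and 1.86 FPKM in lactotropes, and 96.6% of tested genes had a wider log2 range. The pairs pointed different ways, with the somatotrope library at 0.734, 2.09 and 0.99 times the lactotrope library. The log2 difference was 0.14 (SE 0.69, 95% interval -1.36 to 1.63, limma adjusted p = 1.00), and -0.041 without somatotrope 2. The gene occupies bases 39506845 to 39594802 of chromosome 12 (mm9, plus strand). A transcript row with a later start had 3.12, 3.69 and 1.77 FPKM in somatotropes and 4.32, 1.75 and 1.79 FPKM in lactotropes, and the means of the rows were 2.74 each. The nearest profiles were those of 1810058I24Rik and Sh3bp5l, at 0.10 log2 units each.

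The partners, cofactors and pathway genes of these factors were read from 7 lists of 116 genes, of which 81 passed the filter. Of these 81, 0 passed limma's test, and 3 had an unadjusted p under 0.05, which were Klf15, Pdk4 and Isl1, against 0.962% of all tested genes. In the block fit 0 passed and 12 had an unadjusted p under 0.05, against 10.9% of all genes. In all 3 pairs 19 were higher in somatotropes and 12 in lactotropes, where 22.9% and 11.2% of all tested genes were. The median difference was 0.19 over the 81 genes and 0.18 over all tested genes. Scaling moved the latter to 0.05 (median ratio) and 0.02 (quantile), and the genes named below kept their sign under the 3 scalings run, except Ets2. Genes named below for a small p in their list, with Isl1, Zbtb17, Irs2, Klf15 and Pdk4 among them, were picked in these same libraries. Such a choice favours separate groups and a steady difference.

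Of the bHLH list, 10 of 16 genes were tested and 2 were higher in each cell type in all 3 pairs. Id4, an inhibitor of bHLH dimers, had 5.87, 40.7 and 18.7 FPKM in somatotropes and 4.48, 10.8 and 1.84 FPKM in lactotropes, a difference of 1.65 (SE 0.78) that was 1.03 without somatotrope 2. Id4 was called in the block fit without replicate 1 (adjusted p = 0.0294), a fit added after the data were seen. Id2, the most abundant of the list, had 17.3, 15.1 and 45.2 FPKM in somatotropes and 22.8, 42.7 and 71.9 FPKM in lactotropes. The proneural genes Neurog1, Neurog2, Neurod2 and Neurod6 were listed at 0 in all 6 libraries.

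Among 11 tested cofactors of INSM1 and other endocrine factors, all 3 pairs favoured somatotropes for 3 and lactotropes for 1. Isl1, a LIM homeodomain factor gene, had 3.22, 8.49 and 5.95 FPKM in somatotropes and 1.12, 2.30 and a listed 0 FPKM in lactotropes, which did not overlap. Its log2 difference was 1.77 (SE 0.74, unadjusted p = 0.0329 and adjusted p = 1.00 in limma), and between 1.30 and 2.16 with 1 library left out. Isl1 was named for its small p, which favours groups apart and a steady difference. Kdm1a, the histone demethylase that INSM1 recruits, had 25.2, 13.3 and 14.3 FPKM in somatotropes and 31.7, 10.5 and 1.19 FPKM in lactotropes, and its difference of 0.93 turned to -0.12 without lactotrope 3. Hdac2, a histone deacetylase gene and the most abundant of the list, had 46.0, 14.9 and 30.2 FPKM in somatotropes and 45.6, 15.1 and 16.2 FPKM in lactotropes, level in pairs 1 and 2.

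Of 11 tested relatives and partners of Six3 and Six6 (the Eya, Dach and Tle genes among them), 1 was higher in somatotropes and 2 in lactotropes in all 3 pairs. Six2 had 6.63, 52.4 and 13.2 FPKM in somatotropes and 5.60, 16.0 and 3.15 FPKM in lactotropes, and its difference on the log2 scale, 1.21 (SE 0.80), dropped to 0.43 when somatotrope 2 was left out. Like Six3, Six2 was highest in somatotrope 2. Tle1, a co-repressor gene of the Groucho family, had 7.71, 5.28 and 5.71 FPKM in somatotropes and 3.49, 6.02 and 0.0023 FPKM in lactotropes, and its difference of 1.18 was 0.35 without lactotrope 3. Aes, a short member of that family, was the most abundant with a mean of 57.6 FPKM (SD 6.49, n = 3) in somatotropes and of 48.4 FPKM (SD 12.9, n = 3) in lactotropes.

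The Zbtb family, with 10 tested genes, had a median difference of -0.24. Zbtb17, the MYC partner gene also called Miz1, had 1.87, 0.659 and 1.98 FPKM in somatotropes and 3.19, 2.86 and 3.65 FPKM in lactotropes, without overlap, a difference of -0.80 (SE 0.68, limma adjusted p = 1.00). Without somatotrope 2 it was -0.53. Zbtb38 had a difference of 0.63, which was 0.062 without lactotrope 3, and Zbtb1, the most abundant, one of -0.22, which turned to 0.014 without lactotrope 1. Of 14 tested Ets and FGF-ERK feedback genes, 4 had the somatotrope library on top in all 3 pairs and 3 the lactotrope library. Spry1, a feedback inhibitor of FGF signalling, had 4.75, 14.6 and 9.81 FPKM in somatotropes and 2.69, 8.15 and 1.83 FPKM in lactotropes. Fgfr2, an FGF receptor gene, had 1.16, 8.96 and 1.48 FPKM in somatotropes and 1.10, 1.86 and a listed 0 FPKM in lactotropes, with 1 high library in somatotrope 2, and its difference of 1.05 was 0.35 without it. Ets2, the most abundant, had a difference of 0.08, which was -0.10 after median-ratio scaling and -0.24 without lactotrope 2.

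The FoxO pathway was read as upstream signalling and as target genes. Of 12 tested FoxO and insulin-PI3K-Akt genes, Irs2, an insulin receptor substrate gene, had 7.24, 1.88 and 6.07 FPKM in somatotropes and 10.9, 7.94 and 16.4 FPKM in lactotropes, without overlap, for a difference of -1.16 in log2 units (SE 0.67, limma adjusted p = 1.00), which was -0.69 without somatotrope 2. Akt1, the most abundant, had 30.9, 36.9 and 18.1 FPKM in somatotropes and 24.5, 30.7 and 4.32 FPKM in lactotropes, and its difference of 0.81 was 0.0025 without lactotrope 3. The other FoxO factor genes were low, with Foxo3 at no more than 0.314 FPKM and Foxo4 at no more than 0.0358 FPKM in any library.

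Of 14 tested FoxO target genes, 5 had the somatotrope library on top in every pair and 1 the lactotrope library. The shares among all tested genes were 22.9% and 11.2%. Whether the levels of these target genes depend on Foxo1 was not tested. Klf15, a metabolic transcription factor gene, had 14.0, 5.29 and 7.86 FPKM in somatotropes and 1.80, 1.32 and 1.71 FPKM in lactotropes. Its groups did not overlap, and its log2 difference was 1.86 (SE 0.69, unadjusted p = 0.0176 and adjusted p = 1.00 in limma; 0.234 in the block fit). Pdk4, a kinase gene that restrains pyruvate oxidation, had 7.64, 4.73 and 1.82 FPKM in somatotropes and 0.591, 1.75 and 0.19 FPKM in lactotropes, without overlap, a difference of 1.58 (SE 0.73). Leaving out 1 library gave 1.52 to 2.15 for Klf15 and 1.22 to 2.02 for Pdk4. Both were named for the smallest p of the list in these same libraries, a choice that favours separate groups and a steady difference. Of all tested genes, 3.66% had groups that did not overlap. Txnip, the most abundant target, had 54.6, 7.48 and 28.2 FPKM in somatotropes and 36.8, 40.4 and 15.5 FPKM in lactotropes, with pairs that pointed different ways. The median of this list was 0.28.

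**Figure D4:**
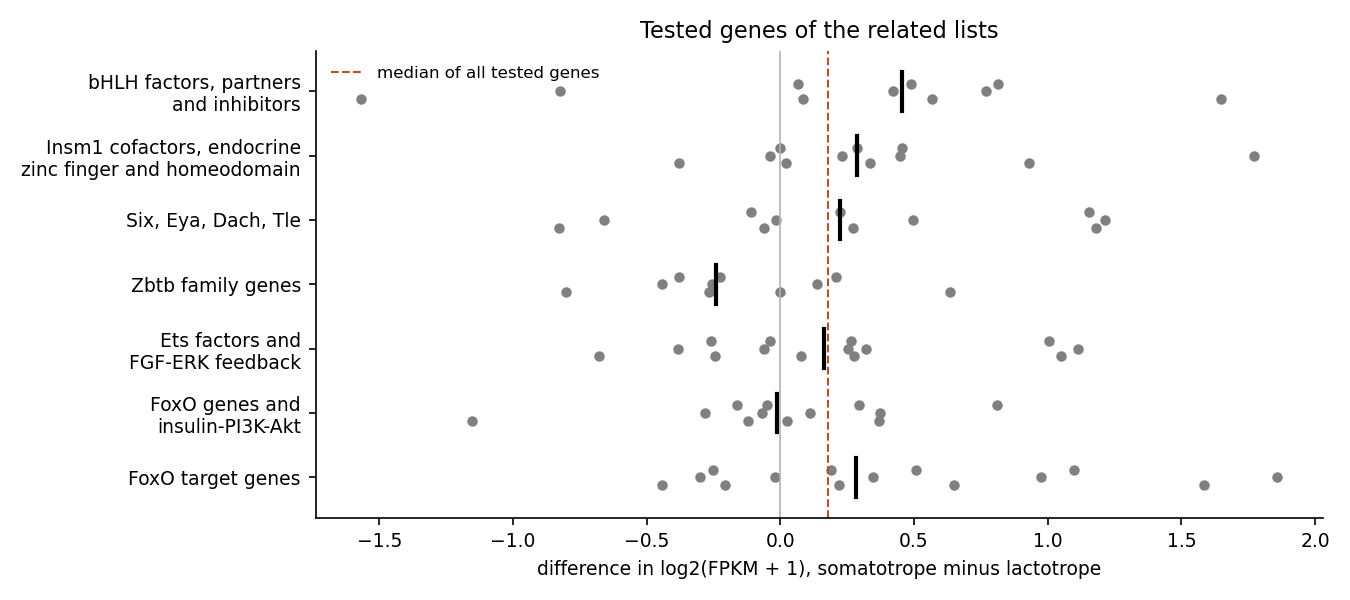
Difference in log2(FPKM + 1), somatotrope minus lactotrope, of the 81 tested genes of 7 related lists (points; a gene on 2 lists appears in both), with each list's median as a black bar and the median of all tested genes, 0.18, as a dashed line. List medians run from -0.24 to 0.45, with Klf15 (1.86) and Isl1 (1.77) at the somatotrope end and Irs2 (-1.16) toward the lactotrope end.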

How the data were processed

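RNA from FACS-sorted pituitary cells was amplified with a NuGen Ovation V2 kit and sequenced on Illumina libraries, per the labels' protocols. The tools named in the submitters' processing notes are TopHat, edgeR and bcl2fastq 2.17.1.14, and the build is mm9. How fragments were counted is stated in no source used here. Values are FPKM as deposited, in a table of 30399 transcripts by 6 libraries. FPKM falls for all other genes where a few transcripts take much of a library. Prl took 46.6%, 12.1% and 53.0% of the FPKM sum of lactotropes 1 to 3, and Gh took 27.4%, 9.95% and 20.1% of that of somatotropes 1 to 3. The 889 rows without a symbol were left out. The members and lists were chosen with earlier results of these data known.

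Values were tested as log2(FPKM + 1), which understates the change of low genes, in the 11642 genes whose mean reached 1 FPKM. The moderated test of limma 3.58.1 (R 4.3.3) used a mean-variance trend, and p-values were adjusted over all tested genes by Benjamini-Hochberg. Same-numbered libraries deviated together from their group means (correlations over genes of 0.763, 0.613 and 0.341), so a blocked fit by replicate number was added. The titles give replicate numbers and state no pairing, so the pairs are assumed from those numbers and this check. Pair 3 was the least clear: the deviations of somatotrope 3 correlated at 0.233 with lactotrope 2, beside 0.341 with lactotrope 3. In levels, somatotrope 3 had a Pearson correlation of 0.848 with lactotrope 2 and 0.782 with lactotrope 3. Counts over all 3 pairs and the blocked fit rest on this assumption. Members were also tested alone with two-sided exact permutation tests. Named genes are the 8 members, the most abundant gene and the 2 with the smallest p of each list, and the 2 nearest profiles per member, and 1 gene so chosen is not reported here. Other pseudocounts (0.1 and 0.5), filters, scalings, row choices, variance models and left-out libraries were run as alternatives. The code was tested on simulated data.

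Promoter windows for 7 of the 8 members came from RefSeq on GRCm38.p6, while the table's coordinates are mm9. Motif positions count from the transcription start.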

Additional observations from a re-analysis of the deposited data

How the results depend on the processing

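No member that was tested was called in any of the 20 alternatives, and Foxo1, Insm1 and Six6 kept their direction in all of them, though not their size. For these genes the filters, the sum over rows, the fit without trend and the replicate block could not change the difference. The fits without replicate 1 of both cell types, with and without the block, also shared their difference. The count of all called genes was 0 as reported, 0 with the replicate block, 9 with array weights, 43 with the replicate block and array weights and 55 with the replicate block without replicate 1 of both cell types, the last with 1 gene of the related lists, Id4. The fits that joined the block with weights or with that omission were chosen after seeing the data. With 1 library left out the count of called genes ran from 0 to 3, with 3 called without somatotrope 1. Over the same omissions the log2 differences ran from -2.31 to 0.25 for Neurod4, from -0.64 to 0.14 for Neurod1, from -0.0076 to 0.73 for Six3, from -0.13 to 1.26 for Zbtb20, from -0.041 to 0.41 for Etv1, from -0.82 to -0.083 for Six6, from -1.27 to -0.30 for Insm1 and from 0.24 to 1.36 for Foxo1. The difference in the Six3 to Six6 ratio ran from 0.53 to 1.44. The difference of Neurod1 was 0.046 without replicate 1 of both cell types, with or without the block. The difference between cell types in the log2 ratio of Neurod4 to Neurod1, -0.62 as reported, ran from -1.94 to 0.10 with 1 library left out, and was 0.06 without somatotrope 3 and 0.10 without lactotrope 1. The cause of these changes was not tested. The replicate block changed no call of a member. Where an omission leaves 2 libraries in a group, and with the block, few degrees of freedom remain, and depth is unknown for 4 of the 6 libraries.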
